A study of Homo sapiens with 5 samples.

Results

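The BCL2 family decides whether the outer membrane of the mitochondrion stays intact, and 10 of its genes were followed here in HEK293 cells, an established human line of embryonic kidney origin. The members were the table rows BCL2, BCL2L1, MCL1, BAK1, BOK, BID, BAD, BCL2L11, PMAIP1 and BCL2L12, a list given by name, 10 of the 24497 gene rows. RNA from lysates of 1000 cells was copied from its poly(A) tails, the 5′ ends were selected, and the material of 100 cells was amplified for each library with 18 cycles of PCR. Batch A comprised 2 libraries and batch B comprised 3, all of HEK293 cells with no treatment named, in the same medium with the same written protocol, so that batch is the sole difference the labels give. The counts on ERCC spike-ins, synthetic RNAs that the written protocol adds to the lysate in both batches, differed, with 1785 and 2127 in the batch A libraries against 13, 1 and 19 in batch B, and their part in the results was not tested. Libraries are called A2, A3, B1, B2 and B3 after the numbers that end the column names, which are used as names alone. No label says whether separate cultures were used, so p-values rest on a spread that may be purely technical.

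Proteins of this family act on one another. Guardians (BCL2, BCL2L1, also called BCL-xL, and MCL1) hold the pore-forming effectors in check, and BH3-only proteins, which share a single short helix with the rest, bind the guardians or switch on the effectors. When effectors assemble, cytochrome c leaves the mitochondrion and caspases are activated. HEK293 cells were made with adenovirus DNA, whose E1B region encodes a viral relative of BCL2. The viral gene was not analysed here, and mRNA levels carry no information on the phosphorylation, cleavage and turnover through which many of these proteins are controlled.

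Library totals were 373687 to 803168 gene counts, with B1 the shallowest, and 3 counts in a library correspond to 3.74 to 8.03 CPM, the share of a library's gene counts scaled to 1000000. Marker genes were checked against the label. All 13 genes of a list known from this line had counts, from PAX2 with 1 to 4 counts per library to VIM at 417 to 549 CPM. Their summed level, of which VIM was the largest part, was 914 to 935 CPM over batch A and 1022 to 1097 over batch B. One gene of this list, INA, had 0 counts in B2. Blood markers summed to 2.49 to 12.2 CPM over the libraries, fibroblast markers to 5.82 to 27.7 CPM and other epithelial markers to 0 to 3.48 CPM. The highest fibroblast marker was COL1A1, at 4.37 to 19.0 CPM. CD3E, CDH1 and VWF were at 0 in every library. The part of other cells in any result was not tested.

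Because the libraries were built from 5′ ends, the sequence just before a gene's start is shown for the 5 members with a single start in RefSeq's promoter table (GRCh38.p14), which cover the range from an abundant member, PMAIP1, to the scarcest, BOK. The table held 9 of the 10 members. Each line gives the last 120 bases before the start, 5′ to 3′, with GC boxes (GGGCGG, bound by SP-family factors) and the core of the cyclic AMP response element (TGACG) in capitals, both searched on both strands.
PMAIP1, chr18:59899876-59899995, plus strand: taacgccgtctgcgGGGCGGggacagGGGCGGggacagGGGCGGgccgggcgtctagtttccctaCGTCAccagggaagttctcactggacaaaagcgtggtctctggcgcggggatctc
BCL2L11, chr2:111120794-111120913, plus strand: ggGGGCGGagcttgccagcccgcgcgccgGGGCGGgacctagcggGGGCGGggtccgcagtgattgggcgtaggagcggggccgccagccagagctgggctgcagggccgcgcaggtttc
BAK1, chr6:33580277-33580396, minus strand: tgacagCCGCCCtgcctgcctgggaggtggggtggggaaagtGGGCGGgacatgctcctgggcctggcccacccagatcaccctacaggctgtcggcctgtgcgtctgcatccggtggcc
BCL2, chr18:63319770-63319889, minus strand: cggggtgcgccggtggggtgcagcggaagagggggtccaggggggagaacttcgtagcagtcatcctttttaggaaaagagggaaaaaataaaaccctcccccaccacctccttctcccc
BOK, chr2:241558625-241558744, plus strand: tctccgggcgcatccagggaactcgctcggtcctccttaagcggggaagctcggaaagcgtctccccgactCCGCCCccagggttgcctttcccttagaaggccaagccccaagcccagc

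The PMAIP1 and BCL2L11 stretches held 3 GC boxes each, that of BAK1 held 2, that of BOK held 1 and that of BCL2 held 0. In these members the number of GC boxes did not strictly follow the level. Nor did it before the starts of members with more than 1 start. BCL2L12, the most abundant member, had 0 and 1, and BID had 3, 0, 0, 4 and 0. BAD had 1 and 0, and BCL2L1 had 0 and 0. A GC box was found in 34.0% of 35116 stretches of the same length before starts in the whole table. The TGACG core occurred once before PMAIP1, a gene known as a target of ATF4, and 13.3% of all stretches held it. The core also occurred once before each of the 2 starts of BAD and before 1 of the 2 starts of BCL2L12. These matches describe letters. The counts do not show at which start the reads of a gene began, and the deposited data were mapped to another build (hg19), so the stretches were matched by gene name.

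Levels are given in CPM of gene counts. As the assay keeps 1 end of each transcript, CPM was not divided by transcript length, and values per kb of the longest GENCODE protein-coding transcript are given beside the order. The order by mean CPM over the 5 libraries was BCL2L12, PMAIP1, BID, BAD, MCL1, BAK1, BCL2L11, BCL2L1, BCL2 and BOK, from 157 to 1.41 CPM. In bulk libraries fewer cells with a transcript and fewer copies per cell cannot be told apart. BCL2L12 stood above 93.5% and BOK above 29.5% of the 20087 genes with at least 1 count. The 4 highest members made up 70.5% to 78.7% of the family's summed CPM in each library, a sum that ranged from 589 to 695 CPM.

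Some neighbours in this order did not differ beyond their spread. Of 45 pairs of members, 34 had ranges over the 5 libraries that did not overlap. Among adjacent members on the CPM scale, this held for MCL1 over BAK1 alone, with a ratio of mean CPM of 2.42. BCL2L12 lay above PMAIP1 in 5 of 5 libraries although their ranges overlapped. BAK1 lay above BCL2L11 in 1 of 5 libraries, B1, and level with it in A3 at 24 counts each. Their means were 31.7 and 27.8 CPM, and without B1 their order was the opposite. Per kb, the order was BAD, BCL2L12, PMAIP1, BID, MCL1, BAK1, BCL2L1, BCL2L11, BOK and BCL2. BAD then led at 84.6 CPM per kb beside BCL2L12 at 84.4, since its longest transcript of 1.16 kb is shorter than the 1.85 kb of BCL2L12. MCL1 and BAK1 kept the fifth and the sixth place on both scales.

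**Figure D1:**
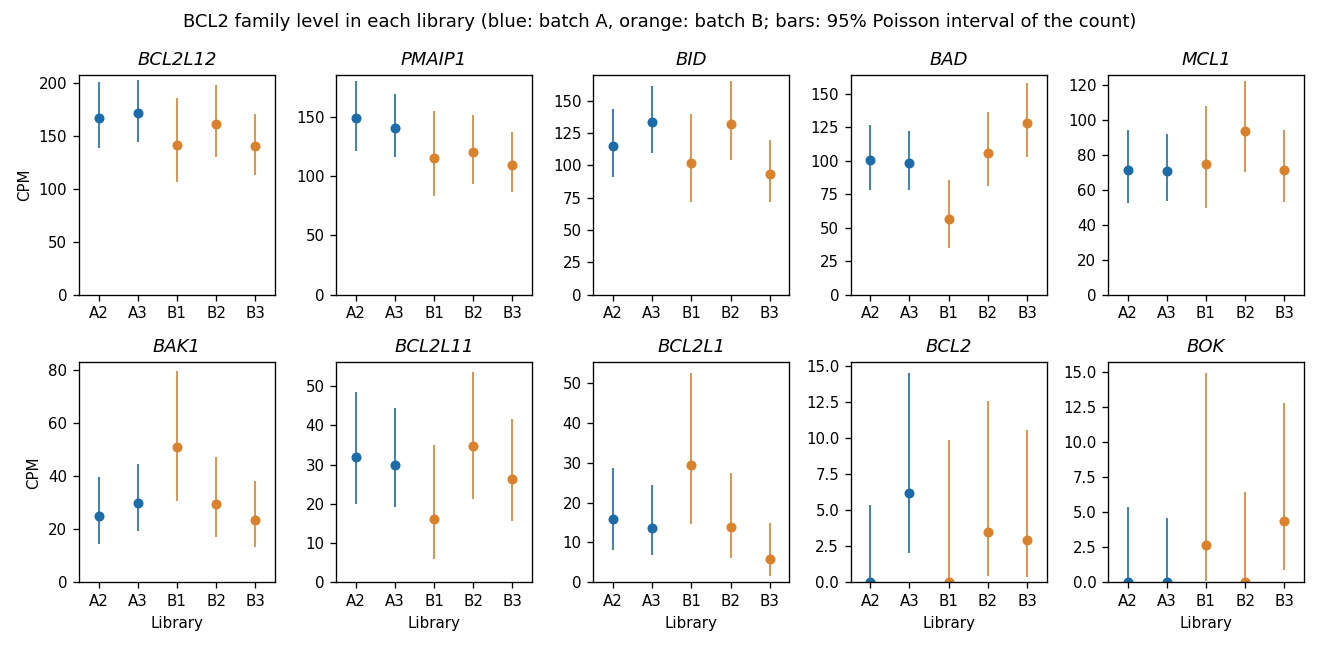
Level of each of the 10 members in CPM (vertical axes, each from 0) in libraries A2, A3, B1, B2 and B3 (horizontal axes), with exact 95% Poisson intervals that cover counting error only. PMAIP1 and BCL2L12 are higher in both batch A libraries than in any of batch B, as are 17.8% of all tested genes. BAD and BCL2L11 are lowest and BAK1 and BCL2L1 highest in B1, and BCL2 and BOK stay at or below 6.23 CPM.

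Among the guardians MCL1, a protein of very short half-life that binds PMAIP1 and BAK1, was the most abundant. Its level was 71.3 and 71.0 CPM in A2 and A3, then 74.9, 93.8 and 71.5 CPM in B1, B2 and B3. B2 was the high library, and the other libraries lay between 71.0 and 74.9 CPM. BCL2L1, which holds BAK1 and BAX in check, was at 16.0 and 13.7 CPM in A2 and A3 and at 29.4, 13.9 and 5.84 CPM in B1, B2 and B3, from 11, 11, 11, 8 and 4 counts. The batch B libraries spanned the batch A values, with B1 highest and B3 lowest, and the exact Poisson intervals of B1 (14.7 to 52.7 CPM) and B3 (1.59 to 14.9 CPM) met at their ends. BCL2, the founding member of the family, had 0 and 5 counts in A2 and A3 and 0, 2 and 2 in B1, B2 and B3. Pooled over the libraries this is 2.88 CPM (95% exact Poisson interval 1.32 to 5.47), and the limit of 3 counts that a library at 0 allows is 4.37 CPM in A2 and 8.03 CPM in B1. Within the summed CPM of the guardians MCL1 took 71.8% in B1 to 89.1% in B3. The ratio of MCL1 to BCL2L1 in CPM ranged from 2.55 in B1 to 12.2 in B3, where BCL2L1 rests on 4 to 11 counts.

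Of the effectors, BAK1, which sits in the outer mitochondrial membrane and forms pores once activated, was at 24.8 and 29.9 CPM in A2 and A3 and at 50.8, 29.5 and 23.4 CPM in B1, B2 and B3. B1 was the high library and the other batch B libraries lay in the range of batch A or just below it. BOK, an effector that the guardians restrain little, had 0 counts in A2 and A3 and 1, 0 and 3 in B1, B2 and B3. Its 4 counts give a pooled level of 1.28 CPM (95% exact Poisson interval 0.349 to 3.28), at which a difference between batches was not detectable. BAX, the partner effector of BAK1 and no member of the list, was at 16.1 to 31.3 CPM over the 5 libraries.

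Among the listed members, whose groups differ in size, the BH3-only genes were the most abundant functional group by summed CPM. PMAIP1, which encodes NOXA, a binder of MCL1, was at 148 and 141 CPM in A2 and A3 and at 115, 120 and 109 CPM in B1, B2 and B3. Both batch A libraries were above every batch B library, as for 17.8% of all tested genes. BID, which caspase-8 cleaves to carry death receptor signals to the mitochondrion, was at 115 and 133 CPM in A2 and A3 and at 102, 132 and 93.4 CPM in B1, B2 and B3, and the batches overlapped. BAD, which growth factor signals keep bound to 14-3-3 proteins through phosphorylation, was at 100 and 98.4 CPM in A2 and A3 and at 56.2, 106 and 128 CPM in B1, B2 and B3. The batch A libraries were close together, while B1 was low and B3 high. BCL2L11, which encodes BIM, a strong binder of all guardians, was at 32.0 and 29.9 CPM in A2 and A3 and at 16.1, 34.8 and 26.3 CPM in B1, B2 and B3, with B1 again low, from 6 counts.

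BCL2L12, a proline-rich and atypical relative that has been described as an inhibitor of apoptosis in glioma, was the most abundant member in every library. It was at 167 and 172 CPM in A2 and A3 and at 142, 162 and 140 CPM in B1, B2 and B3. As for PMAIP1, both batch A libraries were above all of batch B. The annotation places IRF3, an interferon regulatory factor, on the opposite strand across part of BCL2L12, and the IRF3 row had 23 and 39 counts in A2 and A3 and 24, 32 and 41 in B1, B2 and B3 against 115, 138, 53, 93 and 96 for BCL2L12. GPR137 overlaps BAD on the opposite strand and had 12 to 20 counts per library. Whether counting used strand is not given in the sources used here, so reads of these pairs cannot be told apart with certainty. The rows BOK-AS1 and ADAMTSL4-AS1, which overlap BOK and MCL1, had 0 counts in all libraries.

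How far the members varied within a batch differed between them. A chi-square of the counts against those that library totals predict, per degree of freedom, is near 1 under sampling error alone. It was 0.152 for PMAIP1, 0.382 for BCL2L12 and 0.703 for MCL1. It came to 4.06 for BAD, 3.24 for BCL2L1, 2.08 for BAK1, 1.84 for BID and 1.01 for BCL2L11, each over 3 degrees of freedom. With so few degrees of freedom these values are a description. The coefficient of variation of CPM over the 5 libraries was 9.39% for BCL2L12, 13.4% for PMAIP1, 26.8% for BAD and 54.3% for BCL2L1.

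Summed by role over the listed members alone, the guardians reached 80.3 to 111 CPM. BCL2L12, at 140 to 172 CPM, was given no role because its role is less settled, and is in none of these sums. The effectors BAK1 and BOK reached 24.8 to 53.5 CPM and the BH3-only genes 289 to 402 CPM. BH3-only transcripts outnumbered guardian transcripts in all 5 libraries, with ratios of 4.53 and 4.42 in A2 and A3 and of 2.77, 3.53 and 4.45 in B1, B2 and B3, and a mean of 3.94 ± 0.773 (SD, n = 5). B1 combined the lowest BH3-only sum with the highest effector sum. B1 was also the shallowest library, and the part of depth in these values was not tested. Divided by transcript length, the mean ratio was 8.01. The longest transcripts of the guardians measure 2.61 kb (BCL2L1), 3.93 kb (MCL1) and 7.46 kb (BCL2). BCL2L12 lay above the guardian sum in each library, so the ratio depends on leaving it out. These are ratios of transcript ends and not of proteins.

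**Figure D2:**
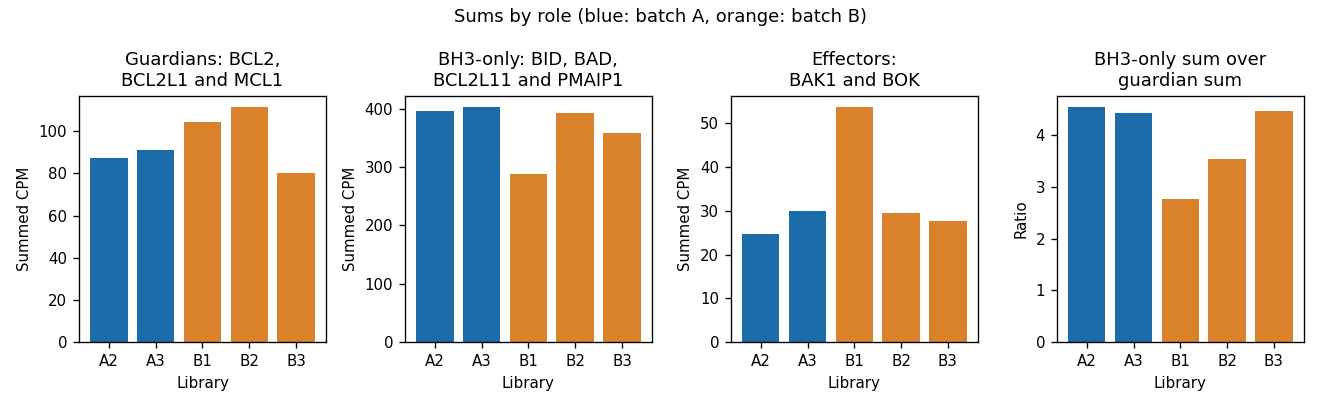
Summed CPM of guardians, BH3-only genes and effectors, and the ratio of BH3-only to guardian sums (vertical axes, from 0), in each library (blue, batch A; orange, batch B). The BH3-only sum exceeds the guardian sum in each library, and B1 has the lowest ratio, 2.77. BCL2L12 is in none of the sums.

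The comparison of batch B with batch A asks how well their levels held in the other batch of the line. No member passed the test. PMAIP1 had the largest fitted difference, a log2 fold change of -0.31 (SE 0.16, edgeR adjusted p = 0.290), with a mean of 145 ± 5.52 CPM over A2 and A3 (SD, n = 2) and of 115 ± 5.23 over B1, B2 and B3 (SD, n = 3). BAK1 was at 0.25 (SE 0.34, edgeR adjusted p = 0.788), MCL1 at 0.20 (SE 0.21) and BAD at 0.08 (SE 0.18). BCL2L11 was at -0.18 (SE 0.35), BCL2L12 at -0.17 (SE 0.14), BID at -0.17 (SE 0.16) and BCL2L1 at -0.01 (SE 0.49).

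With edgeR's quasi-likelihood F test and p-values adjusted by Benjamini-Hochberg over 9215 genes, 0 of the 8 members tested were called, and 4.2% of all tested genes were called (387 genes). PMAIP1 alone had an unadjusted edgeR p below the threshold, at 0.0455. DESeq2 called 0 of the 5 members to which it gave an adjusted p, and limma-voom called 0 of 8. The count over all genes was 138 without A2, 152 without A3, 202 without B2 and 41 with DESeq2, while the count of called members was 0 in each of the 14 alternative settings. BCL2 and BOK did not pass the filter on low counts, and without that filter they were not called (edgeR adjusted p = 0.908 and 0.714). The median log2 fold change was -0.09 over the tested members and 0.00 over all tested genes, and the median absolute values were 0.18 and 0.23.

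In 3 of the 8 tested members (37.5%) the libraries of the batches did not overlap in CPM, against 31.3% of all tested genes. BCL2L12 and PMAIP1 were lower in batch B, a direction that 17.8% of tested genes showed without overlap. MCL1 was higher in batch B, as were 13.5% of tested genes, by a margin of 71.5 in B3 against 71.3 CPM in A2, and its batches overlapped on the TMM scale. The members' share is near that of all genes.

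The intervals show what the counts could resolve under a spread pooled over genes. They do not widen for members that varied more within a batch, such as BAD and BCL2L1. The 95% interval of the log2 fold change was -0.62 to -0.01 for PMAIP1, -0.45 to 0.10 for BCL2L12, -0.49 to 0.15 for BID, -0.27 to 0.42 for BAD and -0.21 to 0.60 for MCL1. It was -0.41 to 0.92 for BAK1, -0.86 to 0.49 for BCL2L11 and -0.97 to 0.94 for BCL2L1, so that changes approaching 2-fold in either direction lie inside the interval of BCL2L1. The sign of 3 members turned when a single library was left out. BAK1 went to -0.05 without B1. BAD went to -0.17 without B3. BCL2L1, with a fit close to 0 over all libraries, went to 0.50 without B3 and did not pass the filter on low counts without B1.

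**Figure D3:**
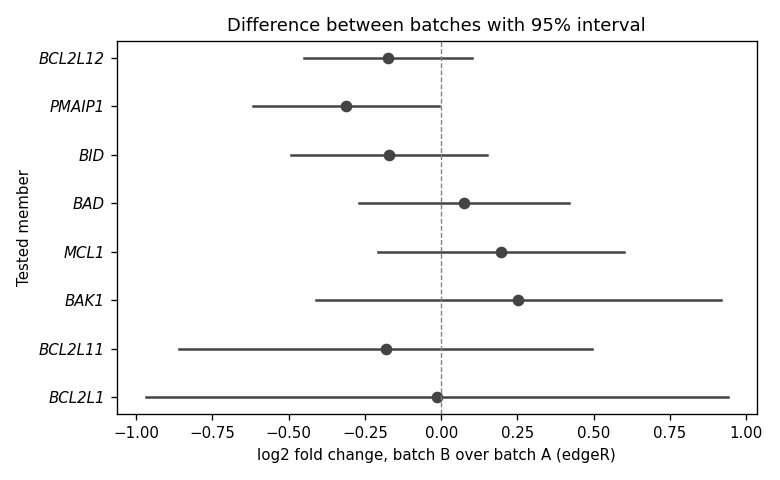
Fitted log2 fold change of batch B over batch A (horizontal axis) with its 95% interval for the 8 tested members (vertical axis, in order of mean CPM). The interval of PMAIP1 ends at -0.01, those of the other members cross 0, and no member was called after adjustment over all tested genes.

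Genes that work with the family were read from 8 lists of apoptosis genes, in which 98 distinct genes were tested, 1 rose, 2 fell and 95 did not pass the test, with a median log2 fold change of 0.00. The called genes are 3.06% of the list genes, a share near the 4.2% called over all tested genes. In a list of other BCL2 family genes and associated factors, 0 of 11 tested genes were called. The most abundant were no family members by structure: MTCH2, an outer membrane receptor for BID, at 282 CPM and BCLAF1, a nuclear BCL2-associated factor, at 281 CPM (means over 5 libraries). Among factors of the apoptosome and intermembrane space, 1 of 7 rose. ARL2, a small GTPase found in part in the intermembrane space, had 59 and 85 counts in A2 and A3 and 68, 84 and 103 in B1, B2 and B3, and rose from a mean of 95.9 ± 14.1 CPM to 159 ± 19.6 CPM (SD, n = 2 and 3), a log2 fold change of 0.72 (SE 0.16, edgeR adjusted p = 0.000657). CYCS, cytochrome c itself, was far more abundant than any family member on the CPM scale, at 551 to 725 CPM, and was not called.

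Of the outer membrane channels and import receptors, 1 of 13 fell. VDAC3, a voltage-dependent anion channel, had 323 and 376 counts in A2 and A3 and 122, 195 and 232 in B1, B2 and B3, and fell by 0.46 on the log2 scale (SE 0.10, edgeR adjusted p = 0.00113). Its mean level went from 469 ± 1.48 CPM (SD, n = 2) to 335 ± 7.07 CPM (SD, n = 3). TOMM20, a receptor of the import complex, was the most abundant of that list at 430 CPM. Among partners and turnover factors, 1 of 26 fell, namely SKP1, an adaptor of cullin ligases, by 0.42 (SE 0.11, edgeR adjusted p = 0.00756), with 269 and 299 counts in A2 and A3 and 90, 165 and 205 in B1, B2 and B3. The most abundant genes of that list were TPT1, a binder of MCL1, at 1107 CPM and the 14-3-3 protein YWHAE at 851 CPM. Without A2 the calls of ARL2, VDAC3 and SKP1 were lost (edgeR adjusted p = 0.0774, 0.0561 and 0.187).

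In the remaining lists no gene was called: 0 of 7 caspases and their DNase partners, 0 of 4 inhibitors of apoptosis, 0 of 9 death receptors and adaptors and 0 of 22 transcription factors and stress response genes. DFFA, the inhibitor of the caspase-activated DNase, led the first list at 283 CPM, ahead of CASP2 at 122 CPM. BIRC5, the mitotic protein survivin, was at 289 CPM and XIAP, a direct caspase inhibitor, at 75.2 CPM. DAXX, a death receptor adaptor and chromatin factor, was at 76.7 CPM and TNFRSF10B, a receptor for TRAIL, at 39.7 CPM. ATF4 was at 391 CPM and MYC at 166 CPM.

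**Figure D4:**
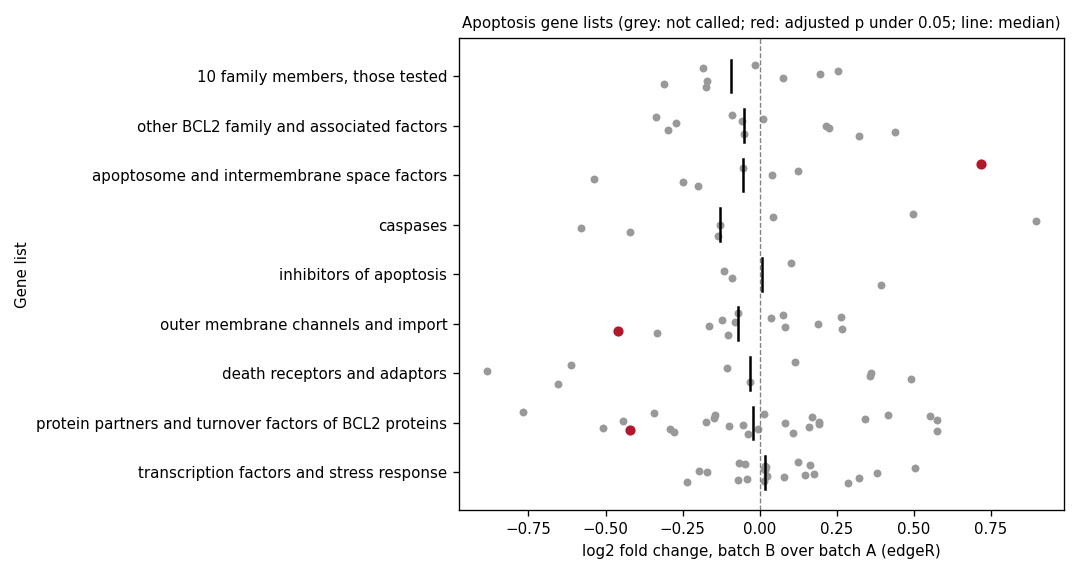
Fitted log2 fold change of batch B over batch A (horizontal axis) for the tested family members and for each tested gene of 8 apoptosis lists (vertical axis). Lines mark medians, which lie between -0.13 and 0.02, and red points mark the called genes ARL2, VDAC3 and SKP1.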

How the data were processed

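Counts per gene were read from a deposited table with 24549 rows, of which 52 are ERCC spike-ins, left out here. Its whole-number counts are as the authors deposited them, without normalization. The submitters' processing notes name the tools STAR 2.4.0a and cutadapt 1.2.1 and the builds hg19 and GRCh37. For the counter, annotation, use of strand and collapsing of molecular identifiers the answer is: not given in the sources used here. Poisson intervals and zero-count limits cover counting error only, and are too narrow if PCR copies were counted.

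The date-like prefix of each column name, which the sample titles also carry, gave its batch. Batch B was compared with batch A over the whole table with edgeR 4.0.16 in R 4.3.3 (TMM scaling, filterByExpr, quasi-likelihood test), and genes with an adjusted p below 0.05 were called. With infinite prior degrees of freedom, spread was pooled over genes. The standard error of a log2 fold change was taken as its size over the root of the F statistic, and intervals are at 95%. Alternatives used DESeq2 1.42.0, limma 3.58.1, other scalings, filters, thinning and left-out libraries, where a batch left with 1 library borrows the spread of the other batch. All 10 members are named, and of each list the called genes (up to 4) and the 2 genes of highest CPM. The values of 1 list gene are not reported here. The members and lists were chosen with earlier results of these data known. Promoters are RefSeq's on GRCh38.p14, and overlaps and transcript lengths are from GENCODE release 29 by gene name.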

Additional observations from a re-analysis of the deposited data

How the results depend on the processing

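Over 14 alternative settings, 107 fitted values of the 8 tested members were obtained, of which 0 were called, 98 kept their sign and 9 changed it. No sign changed for MCL1, PMAIP1, BID, BCL2L11 and BCL2L12. BCL2L1, at -0.01 in the main comparison, went to -0.62 with the replicate block and -0.35 with limma-voom, turned to 0.091 with DESeq2 at its default and to 0.087 with a local dispersion trend (chosen after seeing the data), and ran from -0.13 to 0.50 when a library was left out, positive without A2, B2 or B3. BAK1 turned to -0.023 after thinning and -0.059 with the replicate block, and ran from -0.054 to 0.52 when a library was left out, negative without B1. BAD ran from -0.17 to 0.26, negative without B3. BCL2L1, BAK1 and BCL2L11 had no value at a mean count of at least 20, nor BCL2L1 after thinning or without B1. Without a filter on low counts, BCL2 and BOK were tested too and 0 of 10 members were called. Adjusted p-values of PMAIP1 ran from 0.263 to 0.916. The count of called genes, 387, was 41 with DESeq2, 104 with its local trend and 198 after thinning, and 138 to 333 when a library was left out. The cause was not tested. A replicate block from the numbers that end the columns gave 394 called genes and 0 called members. Since B1 alone has the number 1, B1 does not enter the fold changes of that setting. The -0.62 of BCL2L1 is thus a fold change without B1. The numbers of batch A differ from those of the labels, so the samples share only a number. Deviations from the batch means over tested genes correlated at 0.01 for A2 with B2 and -0.02 for A3 with B3. Calls lost besides those given above were those of ARL2, VDAC3 and SKP1 with DESeq2 (adjusted p = 0.175, 0.190 and 0.397), and of SKP1 with the local trend (0.0535) and after thinning (0.0679).

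The rank by CPM changed for 8 members when divided by length, for which the ratio of BH3-only to guardian sums was 8.01. When a library was left out it changed for 0 to 2 members (BCL2 and BOK without A3, BAK1 and BCL2L11 without B1), and the ratio was 3.79 to 4.24. With 9 and 4 counts in all, BCL2 and BOK did not pass the filter on low counts.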

Other observations

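Some BH3-only genes outside the list had counts below the filter on low counts, and those named here were chosen after their values were seen. BIK had 8 and 4 counts in A2 and A3 and 0, 0 and 2 in B1, B2 and B3. BBC3, which encodes PUMA, had 2 and 2 counts in A2 and A3 and 5, 6 and 3 in B1, B2 and B3. BMF had 1 and 1 counts in A2 and A3 and 1, 4 and 4 in B1, B2 and B3. HRK, a BH3-only gene best known from neurons, passed the filter and had 11, 12, 6, 11 and 17 counts in A2 to B3, at 14.9 to 24.8 CPM, a level close to that of BCL2L1 and of BAX. Without the filter, the differences in BIK, BBC3 and BMF were not called (edgeR adjusted p = 0.278, 0.536 and 0.714).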
